A study of Mus musculus with 6 samples.

Results

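Bulk RNA sequencing of B16 tumours was used to follow 10 genes that are switched on by signalling through the mitogen-activated protein kinases (MAPK). They were taken by gene name from the deposited count table, and all 10 were found, each once, among 34665 rows. They are Dusp1, Dusp4, Dusp5, Dusp6, Spry1, Spry2, Spry4, Spred1, Etv4 and Etv5. B16 is a mouse melanoma cell line, and per the labels its genotype is WT in all tumours. The RI group held 3 tumour libraries from mice given radiation plus an immune checkpoint inhibitor (replicates 1, 2 and 4), and the ICI group 3 tumour libraries from mice given the inhibitor alone (replicates 1, 2 and 3), so every mouse received the inhibitor. The sources used here do not give the inhibitor's target, the radiation dose, the time of harvest, the age and strain of the mice, or whether the sampled tumour was itself irradiated. The labels name the cell type as melanoma cells, although the libraries were made from whole harvested tumours. They do not say that each library came from a different mouse, so the p-values reflect the variation among libraries, which may be technical. The comparison asks how these transcripts differ between radiation with the inhibitor and the inhibitor alone.

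In the MAPK cascade, growth factor receptors activate RAS, and RAF, MEK and ERK kinases then pass the signal on in turn by phosphorylation. ERK enters the nucleus and raises transcription of genes that carry out its effects, among them the ETS transcription factors Etv4 and Etv5, and of genes that damp it. The dual-specificity phosphatases remove phosphate from MAP kinases. Sprouty and Spred proteins act further up and restrain RAS and RAF activation. Because these transcripts depend on ERK activity, their levels are widely read as an index of pathway output in melanoma, where the pathway drives growth.

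Dusp1 rose 2.97-fold in RI, and the other 9 genes did not pass the threshold. Of 10 genes, all tested, 1 was higher, 0 were lower and 9 did not pass an adjusted p under 0.05 (edgeR quasi-likelihood test, Benjamini-Hochberg over all tested genes). Over all 16924 tested genes 4.46% were called higher in RI, 4.72% lower and 9.18% in either direction, so the share called among these genes lies near that background. With upper-quartile scaling the split of all calls was 1046 higher and 497 lower, against 754 and 799 here. For 4 of the 10 the RI and ICI libraries did not overlap, with Dusp1, Spry1 and Spry2 higher in RI and Spred1 lower. Of all tested genes 37.2% had no overlap, 17.8% with RI higher and 19.4% with RI lower. The same 4 had an unadjusted p under 0.05, as had 31.5% of all tested genes. The median log2 fold change of the 10 was 0.30, against 0.01 for all tested genes, and 7 were above 0 and 3 below.

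The promoters of the genes differed in the response elements they carry, and those of Dusp1 and Dusp5 are printed because they held the cyclic AMP response element (CRE) and the serum response element core (CArG box), through which CREB and serum response factor act. The windows run from 250 bases before to 50 bases after the RefSeq transcription start on GRCm38.p6, 5′ to 3′ on the gene's strand, with motif matches in capitals. Both are as RefSeq gives them, at chr17:26508423-26508722 on the minus strand for Dusp1 and at chr19:53528895-53529194 on the plus strand for Dusp5.
Dusp1: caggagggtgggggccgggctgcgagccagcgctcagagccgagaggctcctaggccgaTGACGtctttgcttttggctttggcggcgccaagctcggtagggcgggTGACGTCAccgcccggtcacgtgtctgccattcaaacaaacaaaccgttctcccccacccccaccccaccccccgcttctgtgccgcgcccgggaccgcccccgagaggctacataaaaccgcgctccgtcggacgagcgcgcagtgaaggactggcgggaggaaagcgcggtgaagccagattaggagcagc
Dusp5: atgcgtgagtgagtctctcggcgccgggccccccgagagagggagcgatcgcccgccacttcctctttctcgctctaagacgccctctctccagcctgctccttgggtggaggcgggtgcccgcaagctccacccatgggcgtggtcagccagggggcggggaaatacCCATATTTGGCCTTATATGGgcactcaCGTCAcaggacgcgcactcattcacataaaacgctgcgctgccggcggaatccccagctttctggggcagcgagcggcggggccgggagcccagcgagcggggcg
In Dusp1 the full CRE, TGACGTCA, lay 143 to 136 bases before the start, with a separate CRE core, TGACG, 191 to 187 bases before it. Of 32851 promoter windows of this length, 1.79% held the full CRE and 20.8% the core, each searched on both strands. Every full CRE holds the core on both strands. In Dusp5 adjoining CArG boxes, CCATATTTGG and CCTTATATGG, lay 82 to 73 and 72 to 63 bases before the start, and a CRE core on the opposite strand 55 to 51 bases before it. The CArG box was searched on both strands as its usual consensus, and it was in 1.63% of windows. Windows were searched for 7 of the 10 genes. For Dusp4 and Etv4 no window was available, and Spry4 was left out of the search. Neither the CRE nor the CArG box was found in the windows of Dusp6, Etv5 (with 2 starts), Spred1, Spry1 and Spry2. An AP-1 site, TGANTCA, was in 7.81% of all windows and in 0 of these 8. An ETS core, CCGGAA, was in 14.9% of all windows and, among these genes, in that of Spry2, 34 to 39 bases after the start. A match describes letters in a window and is not evidence that a factor binds there.

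The libraries held 22543721 to 45624013 counts. RI replicate 1 stood apart: 29748 rows were above 0 in it, and 22763 to 24891 in each of the remaining libraries. By CPM it was also the highest of the 6 libraries for 7 of the 10 genes and the highest RI library for 9. Mitochondrially encoded RNA took 11.5% to 14.7% of counts in RI and 4.39% to 5.01% in ICI. The 7 melanocyte markers, among them Pmel and Dct, were all detected in every library and summed to 10072 to 14379 CPM in RI and 13340 to 15180 CPM in ICI. Their log2 fold changes were split, with 3 above 0 and 4 below. Mlana, above 0, averaged 965 CPM in RI and 574 CPM in ICI (adjusted p = 0.0376, edgeR). Levels here are CPM, counts scaled to library size with TMM factors, and in a bulk tumour fewer cells of a type and less RNA per cell cannot be told apart.

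**Figure D1:**
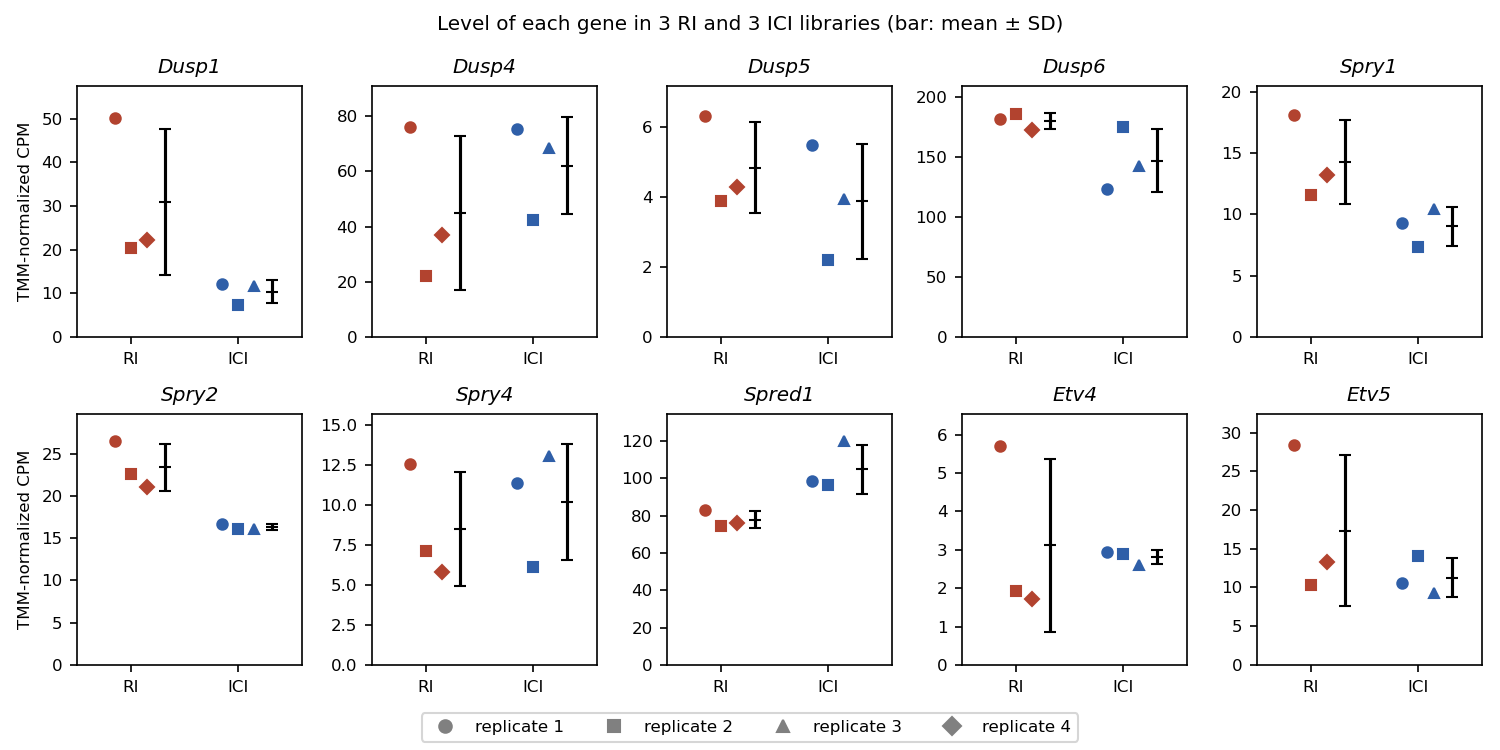
TMM-normalized CPM (y axis, linear, from 0) of each of the 10 genes in the RI (red) and ICI (blue) libraries, 1 point per library with the marker shape giving the replicate number and the bar showing mean ± SD (n = 3 each). Dusp1, Spry1 and Spry2 lay above the ICI libraries in all 3 RI libraries, Spred1 lay below, and RI replicate 1 was far above the other RI libraries for Dusp1, Dusp4, Etv4 and Etv5.

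Among the nuclear phosphatases, Dusp1 was the one called. Dusp1 dephosphorylates p38 and JNK as well as ERK, and is also induced by stress and by glucocorticoids. It had 50.1, 20.4 and 22.3 CPM in RI replicates 1, 2 and 4, against 12.2, 7.35 and 11.6 CPM in ICI replicates 1, 2 and 3. All RI libraries lay above all ICI libraries, and RI replicate 1 held 2.35 times the mean of the other RI libraries. The means were 30.9 ± 16.6 and 10.4 ± 2.67 CPM (SD, n = 3 each), a log2 fold change of 1.57 (SE 0.38, adjusted p = 0.0477, edgeR). Without RI replicate 1 it was 1.04 (adjusted p = 0.0277). Leaving out any of the other 5 libraries ended the call (adjusted p = 0.0801 to 0.153) at a log2 fold change of 1.36 to 1.81, and so did testing without a filter on low counts (0.0688), limma-voom (0.0575) and adjustment for transcript length and GC content (0.0665). The gene lies on chromosome 17, 26505590 to 26562128 on GRCm38, and 0.332% of its exon bases overlap Ergic1 on the opposite strand.

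Dusp4 and Dusp5, the nuclear phosphatases that act mainly on ERK, did not separate the groups. Dusp4 had 76.0, 22.3 and 36.8 CPM in RI replicates 1, 2 and 4, against 75.4, 42.4 and 68.6 CPM in ICI replicates 1, 2 and 3. The highest and the lowest of the 6 libraries were both RI, and RI replicate 1 lay at the level of ICI replicate 1. Its log2 fold change of -0.46 had a 95% interval from -1.59 to 0.66 (adjusted p = 0.526, edgeR), and without RI replicate 1 it was -1.08 (adjusted p = 0.0687). Dusp5 had 6.31, 3.90 and 4.29 CPM in RI against 5.49, 2.21 and 3.93 CPM in ICI. The groups overlapped, with RI replicate 1 the highest and ICI replicate 2 the lowest, and the interval of the log2 fold change ran from -0.54 to 1.18. The antisense gene AC137853.2 covers 22.1% of the Dusp5 exons, and without a stated strand setting its reads and those of Dusp5 may be mixed.

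Dusp6, the cytoplasmic phosphatase specific to ERK and among the most used readouts of ERK activity, varied little in CPM among the RI libraries. It had 181, 186 and 173 CPM in RI replicates 1, 2 and 4, against 124, 175 and 143 CPM in ICI replicates 1, 2 and 3. The RI libraries were close to one another, with a coefficient of variation of 3.83% against 17.7% in ICI, and ICI replicate 2 lay within their range. The log2 fold change was 0.29 with a 95% interval from -0.06 to 0.64 (adjusted p = 0.228, edgeR), which leaves out a doubling in either direction. By CPM, Dusp6 was also the only one of the 10 that was not highest among RI libraries in replicate 1.

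Of the Sprouty genes, Spry1 and Spry2 had more CPM in every RI library than in any ICI library and Spry4 did not; as TPM, given with the order of levels, Spry1 and Spry2 overlapped between the groups. Spry2 had 26.5, 22.6 and 21.0 CPM in RI replicates 1, 2 and 4, against 16.7, 16.1 and 16.1 CPM in ICI replicates 1, 2 and 3. The ICI libraries hardly varied (coefficient of variation 2.19%), and the lowest RI library lay above the highest of them. Its log2 fold change was 0.52 (SE 0.15, adjusted p = 0.0617, edgeR) and did not pass, although DESeq2 (adjusted p = 0.0162) and upper-quartile scaling (0.0459) called it. Spry1 had 18.1, 11.6 and 13.2 CPM in RI against 9.26, 7.32 and 10.5 CPM in ICI. These groups also did not overlap, with a log2 fold change of 0.66 (SE 0.23, adjusted p = 0.0979, edgeR). The antisense gene Gm42922 covers 24.4% of the Spry1 exons, but held only 2 to 12 counts per library.

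Spry4, the third Sprouty gene, fell into a high and a low set that crossed the groups. It had 12.6, 7.12 and 5.79 CPM in RI replicates 1, 2 and 4, against 11.4, 6.14 and 13.1 CPM in ICI replicates 1, 2 and 3. RI replicate 1 and ICI replicates 1 and 3 were high, and the other 3 libraries were low. Dusp4 had the same high and low sets, at 68.6 to 76.0 CPM and 22.3 to 42.4 CPM. The log2 fold change was -0.27 with an interval from -1.11 to 0.58 (adjusted p = 0.646, edgeR), and without RI replicate 1 it was -0.66. Markers of endothelium, set beside Spry4 after its values were seen, split the libraries in the same way. The summed CPM of 5 endothelial markers (Pecam1, Cdh5, Kdr, Tek and Emcn, none of them at 0 in any library) was 157, 58.1 and 30.1 in RI replicates 1, 2 and 4, against 133, 50.9 and 132 in ICI replicates 1, 2 and 3. The sum of the 6 macrophage markers gave the same split, at 286, 142 and 145 CPM in RI replicates 1, 2 and 4, against 179, 137 and 181 CPM in ICI replicates 1, 2 and 3. Of these markers, Cd68 and C1qb did not split so. Cd68 had 27.5 and 31.0 CPM in RI replicates 2 and 4, against 22.3 and 18.1 CPM in ICI replicates 1 and 3. C1qb had 35.7 CPM in ICI replicate 3 and 37.1 CPM in ICI replicate 2. Over the 6 libraries the log2 endothelial sum had a Pearson r of 0.97 with Spry4 and 0.78 with Dusp4. Dusp4 had a higher r, 0.87, with the log2 sum of the melanocyte markers. Its r was 0.72 with the macrophage sum and 0.69 with the T cell sum. Spry4 had an r of 0.78 with the macrophage sum and 0.43 with the melanocyte sum. The part of these cell types in the Spry4 or Dusp4 level was not tested. Among 14039 other genes that averaged 1 CPM or more, the 3 most like Spry4 in log2 CPM over the 6 libraries were Flt1, a VEGF receptor of endothelium, Adgrf5, an adhesion receptor of lung and vessel cells, and Dhx30, an RNA helicase, each at a Pearson r of 0.996 to 0.998. With 6 libraries in a high and a low set, 58 genes exceeded an r of 0.95. The 3 most like Dusp6 were Agbl3, Med27 and Gpr137c (r of 0.985 to 0.997), and 46 genes exceeded 0.95.

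**Figure D2:**
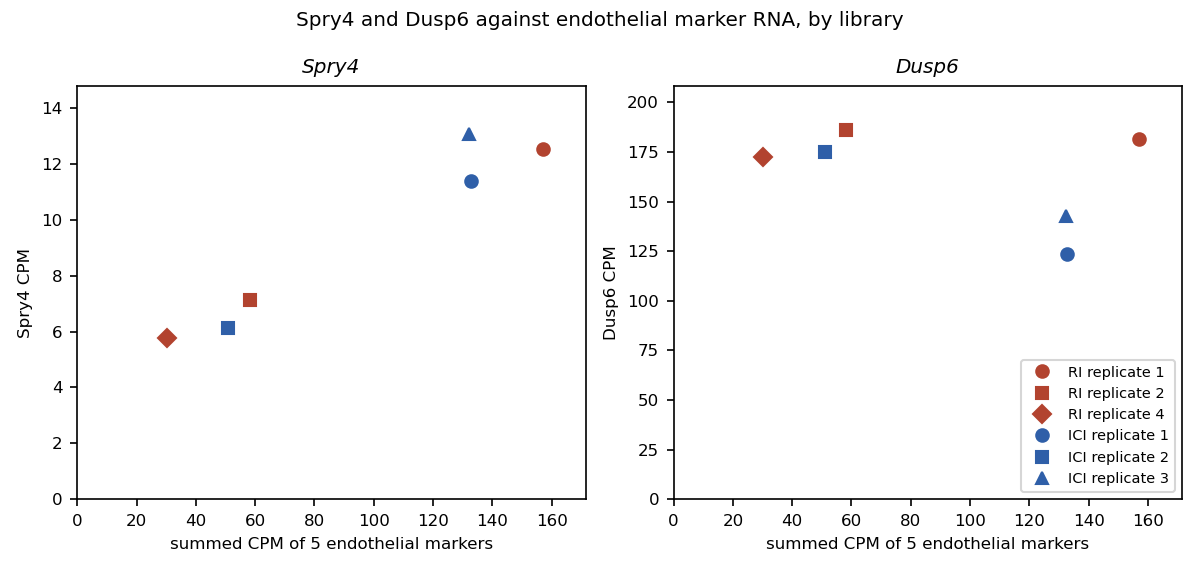
CPM of Spry4 (left) and Dusp6 (right) on the y axes against the summed CPM of 5 endothelial markers on the x axes, 1 point per library, RI in red and ICI in blue. Spry4 was at 11.4 to 13.1 CPM in the 3 libraries with endothelial sums of 132 to 157, and at 5.79 to 7.12 CPM in the 3 with sums of 30.1 to 58.1; Dusp6 did not follow that split.

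Spred1, which binds neurofibromin and with it keeps RAS inactive, went the other way from Spry1 and Spry2. It had 83.0, 74.4 and 76.3 CPM in RI replicates 1, 2 and 4, against 98.7, 96.2 and 120 CPM in ICI replicates 1, 2 and 3. All RI libraries lay below all ICI libraries, with the RI values close together. The means were 77.9 ± 4.52 and 105 ± 13.1 CPM, a log2 fold change of -0.43 (SE 0.13, adjusted p = 0.0723, edgeR) that did not pass, while DESeq2 called it lower (adjusted p = 0.0344). Adjustment of each library for transcript length and GC content brought it to -0.19 (adjusted p = 0.358).

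The ETS factors Etv4 and Etv5, effectors rather than inhibitors of the pathway, moved with 1 library. Etv4 had 5.71, 1.92 and 1.73 CPM in RI replicates 1, 2 and 4, against 2.93, 2.89 and 2.61 CPM in ICI replicates 1, 2 and 3. RI replicate 1 was the highest of all and the other RI libraries the lowest of all. The log2 fold change was 0.15 (adjusted p = 0.853, edgeR) and turned to -0.62 without RI replicate 1 (adjusted p = 0.151). Etv5 had 28.4, 10.3 and 13.3 CPM in RI against 10.5, 14.0 and 9.26 CPM in ICI. Outside RI replicate 1 the groups overlapped fully, and the log2 fold change of 0.62 (adjusted p = 0.291) was 0.07 without that library. A pseudogene, Gm4798, matches 1700 bases of Etv5 at 98.6% identity and held 2 to 4 counts per library.

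**Figure D3:**
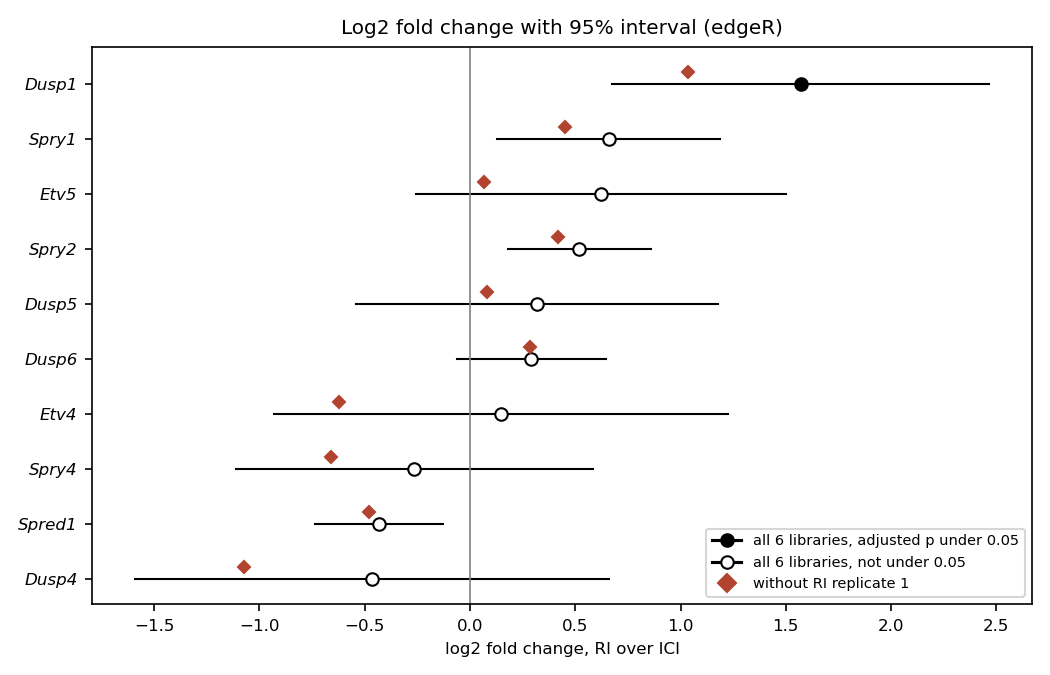
Log2 fold change of RI over ICI (x axis) for each gene from all 6 libraries with its 95% interval (circles and lines, filled where the adjusted p was under 0.05) and without RI replicate 1 (red diamonds). Without that library Dusp1 was at 1.04, against 1.57 with it, Etv5 moved to 0.07, and Etv4 turned to -0.62.

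Per length of exon, as TPM, Dusp6 was the most abundant of the 10 in every library, at a mean of 107 TPM over the 6. Dusp4 (42.2 TPM), Spred1 (29.2), Spry2 (19.1) and Dusp1 (11.5) followed, then Spry1 (7.97), Etv5 (6.83), Spry4 (4.20), Dusp5 (3.61) and Etv4 (1.94). Only Dusp6 lay above its next neighbour in all 6 libraries. Every other neighbouring pair changed places in 1 or 2 libraries, and whether those neighbours differed in level was not tested. Dusp1 passed Spry2 in RI replicate 1, at 22.2 against 18.6 TPM. Passing from CPM to TPM multiplies a gene by a constant for its length and by 1 factor per library that all genes share. That factor lowered RI against ICI for all 10 genes alike, and the direction between groups changed for several. The shift is not particular to these genes. Spry2 averaged 18.4 ± 0.560 TPM in RI and 19.8 ± 1.49 TPM in ICI, and Dusp6 averaged 95.3 ± 9.47 TPM in RI and 118 ± 15.1 TPM in ICI, both lower in RI where their CPM was higher. The means of Dusp5, Etv4 and Etv5 turned in the same way, and Spry1 was near equal at 8.02 ± 1.09 TPM in RI and 7.93 ± 1.91 TPM in ICI. Dusp1 remained higher and Spred1 lower in all RI libraries as TPM. The place of RI replicate 1 also depended on the scaling. As TPM it was the highest of the 6 libraries only for Dusp1, Etv4 and Etv5. Among RI libraries it was not the highest for Dusp6, Spry2 and Spred1. Dusp6 had 85.0, 104 and 97.4 TPM in RI replicates 1, 2 and 4. TPM has no TMM factor, is scaled to the sum of counts per exon length, and was not tested between groups.

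Within groups, the genes other than Dusp6 deviated together. Of the 45 pairs, 38 had a positive Pearson correlation between deviations from the group mean of log2 CPM over the 6 libraries, and the 7 negative pairs all included Dusp6. These correlations describe 6 libraries that all pairs share. RI replicate 1 lay 0.82, 0.94, 0.85 and 1.08 above its group mean for Dusp1, Dusp4, Etv5 and Etv4 and 0.01 above for Dusp6, while ICI replicate 2 deviated most for Dusp5 (-0.70) and Spry4 (-0.66). Dusp1 and Spry1 had an r of 0.98 for log2 CPM itself and 0.95 for the deviations. ICI replicate 2 was the lowest ICI library for 6 of the 10 genes.

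**Figure D4:**
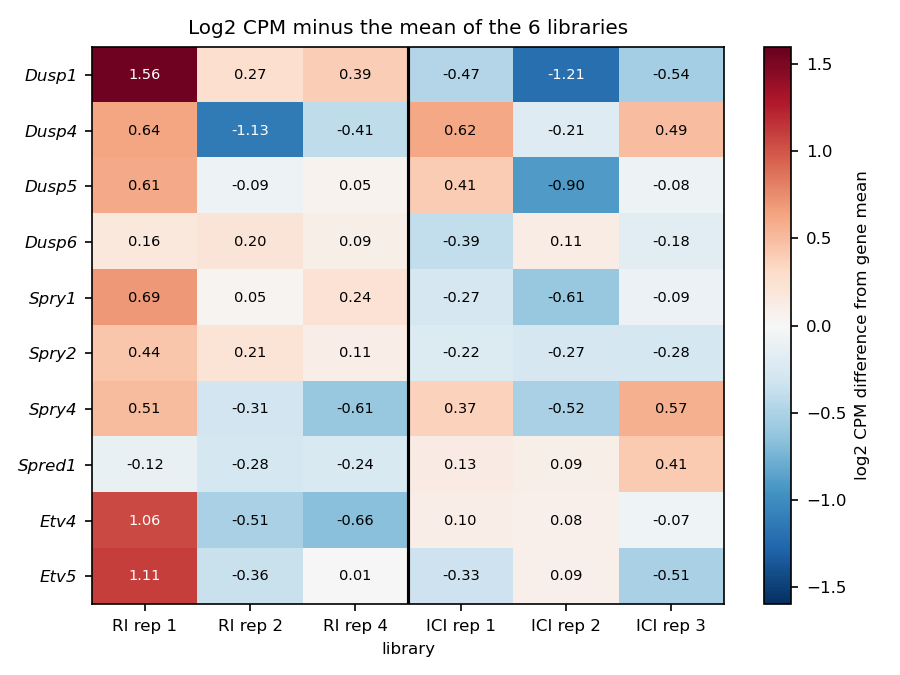
Log2 CPM of each gene (rows) in each library (columns, RI left of the line and ICI right) minus the mean of that gene over the 6 libraries, printed in each cell and coloured red above and blue below that mean. RI replicate 1 was above the mean for 9 of the 10 genes, Spred1 being at -0.12, and Dusp1 ran from 1.56 in RI replicate 1 to -1.21 in ICI replicate 2.

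Spred3 was the other feedback gene called. Of 13 measured genes that also damp the pathway or belong to the same families, 12 were tested. Of these 1 was higher, 0 were lower and 11 did not pass, with a median log2 fold change of 0.34. The share called was 8.33%, near the 9.18% of all tested genes. Spred3, a relative of Spred1, rose 2.08-fold, with 14.2, 14.4 and 14.7 CPM in RI against 5.84, 8.73 and 6.21 CPM in ICI (adjusted p = 0.0328, edgeR). The call was lost with the length and GC offsets (adjusted p = 0.0528) and without RI replicate 2 or 4 or ICI replicate 1 or 3 (0.0831 to 0.152). Among 8 further ERK output genes 1 was higher and 1 lower (median log2 fold change 0.41). Phlda1, a growth-regulating gene used in ERK signatures, rose 1.66-fold, with 203, 277 and 248 CPM in RI against 146, 137 and 156 CPM in ICI (adjusted p = 0.0346). Its log2 fold change of 0.73 was 0.39 with the length and GC offsets (adjusted p = 0.200). Ccnd1, which encodes cyclin D1 and links ERK to cell cycle entry, fell 1.61-fold, with 46.2, 34.9 and 41.5 CPM in RI against 70.4, 66.3 and 60.8 CPM in ICI (adjusted p = 0.0346). Both calls were lost when any library but RI replicate 1 was left out (adjusted p = 0.0633 to 0.152). Egr1, an immediate early transcription factor, had 66.6, 12.5 and 14.7 CPM in RI against 4.26, 4.68 and 5.42 CPM in ICI. Its groups did not overlap, but it did not pass (adjusted p = 0.0643).

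Transcripts of the cascade itself included 6 that fell. Of 20 genes of the cascade and its direct regulators, from adaptors, RAS and its inhibitors to the RAF, MEK, ERK and RSK kinases, all tested, 6 were lower in RI, 0 were higher and 14 did not pass, a share lower of 30% against 4.72% of all tested genes, and the median log2 fold change was -0.32. Sos1, an exchange factor that activates RAS, had 24.9, 28.1 and 25.8 CPM in RI replicates 1, 2 and 4 against 40.2, 38.3 and 42.1 CPM in ICI replicates 1, 2 and 3, a 1.53-fold fall (adjusted p = 0.0346, edgeR). Its relative Sos2 averaged 23.7 ± 2.64 CPM in RI and 35.5 ± 2.79 CPM in ICI (SD, n = 3 each, edgeR adjusted p = 0.0438). Braf, a kinase that phosphorylates MEK, fell 1.41-fold, with 42.6, 40.8 and 41.7 CPM in RI against 56.1, 61.9 and 58.8 CPM in ICI (adjusted p = 0.0378). For these 3 genes no RI library reached the lowest ICI library. Mapk3, which encodes ERK1, lay the other way at 156 ± 17.4 against 118 ± 13.7 CPM without passing (adjusted p = 0.107). The number lower was 0 when ICI replicate 1, ICI replicate 3, RI replicate 2 or RI replicate 4 was left out, 1 without ICI replicate 2 and 9 without RI replicate 1. With the adjustment for transcript length and GC content it was 1, Map2k1, which encodes MEK1 and was named after its values were seen, while Braf was at adjusted p = 0.219.

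**Figure D5:**
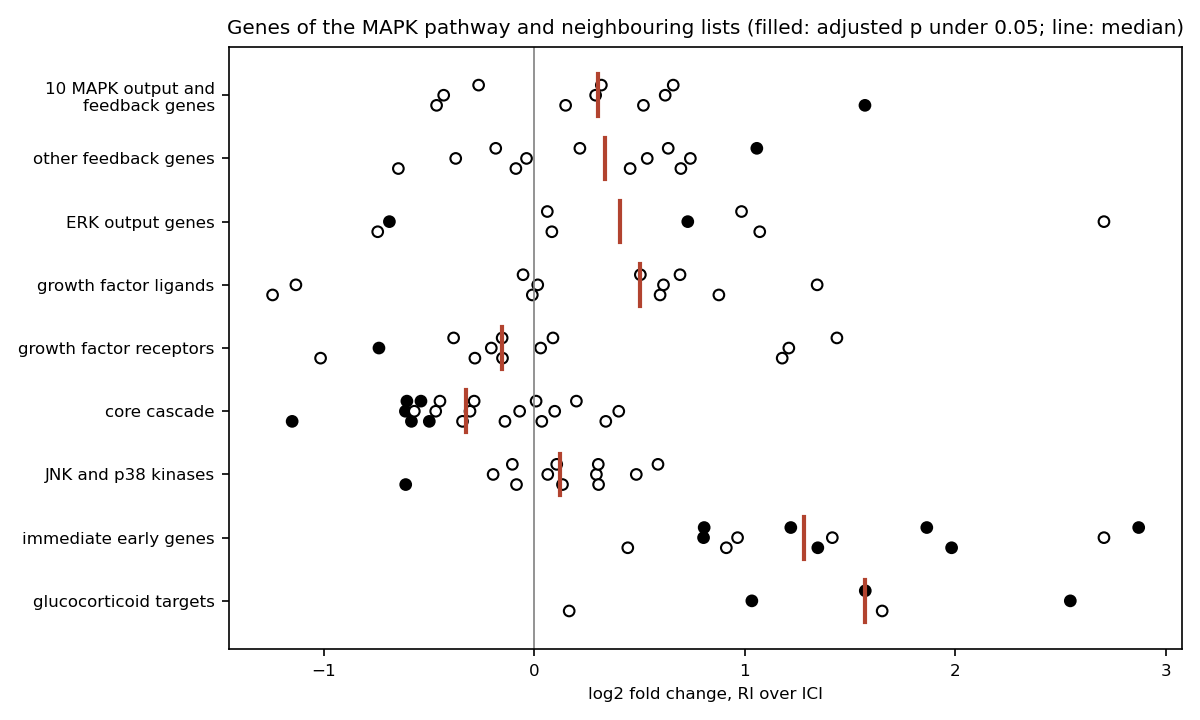
Log2 fold change of RI over ICI (x axis) for tested genes of 9 lists (rows), 1 circle per gene, filled where the adjusted p was under 0.05, with the list median as a red line. In the core cascade 6 of 20 genes were called lower, and in the immediate early list 7 of 12 were called higher.

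Upstream and beside the cascade few genes were called. Of 12 tested growth factor receptors, 1 was lower and 0 higher. Met, the receptor of hepatocyte growth factor, fell 1.67-fold, with 219, 182 and 224 CPM in RI against 400.2, 266 and 376 CPM in ICI (adjusted p = 0.0466, edgeR). Met was called in 7 of 17 alternatives, and was lost with upper-quartile scaling, limma-voom, non-robust estimation and the length and GC offsets (adjusted p = 0.0505 to 0.0867) and without RI replicate 2 or 4 or ICI replicate 1 or 3 (0.101 to 0.175). Of 11 tested ligands none passed over all tested genes in edgeR. Of 12 tested JNK and p38 kinases 1 was lower, Mapk14, the p38 kinase that Dusp1 dephosphorylates, at 94.7 ± 4.99 against 145 ± 18.0 CPM (1.53-fold, adjusted p = 0.0388). That call was lost with upper-quartile scaling (0.0521) and without RI replicate 2 or 4 or ICI replicate 1 or 3 (0.103 to 0.157).

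Dusp1 also belongs to the immediate early genes, some of which ERK induces and 1 of which, Egr1, is among the ERK output genes above, and is a target of glucocorticoids. Of 12 immediate early genes, which are the first to be transcribed after a stimulus, 7 were higher, 0 lower and 5 did not pass. That was 58.3%, against 4.46% of all tested genes called higher, and the median log2 fold change was 1.28. The gene lists were chosen with earlier results of these data known. The number higher was 8 without RI replicate 1, where the median was 0.75. It was 2 without ICI replicate 2, 1 without RI replicate 4 and 0 without RI replicate 2, ICI replicate 1 or ICI replicate 3. It was 3 with the length and GC offsets. Fos, a subunit of AP-1, had 112, 39.7 and 63.1 CPM in RI against 13.8, 15.3 and 25.1 CPM in ICI (adjusted p = 0.0411, edgeR). Its relative Fosb rose 7.32-fold, Klf2, a Krüppel-like factor induced by blood flow in vessels, 3.64-fold, and Zfp36, which speeds the decay of cytokine mRNAs, 2.54-fold. Of 5 glucocorticoid target genes 3 were higher (60%), 0 lower and 2 did not pass (median log2 fold change 1.57). Without RI replicate 1 it was also 3, with a median of 1.02. The number was 1 without RI replicate 4 or ICI replicate 2, 0 without RI replicate 2, ICI replicate 1 or ICI replicate 3, and 1 with limma-voom or the length and GC offsets. Per1, a circadian clock repressor, had 105, 99.6 and 90.2 CPM in RI against 25.6, 40.8 and 32.6 CPM in ICI (adjusted p = 0.0189), and Zbtb16, a zinc finger transcription factor, rose 5.84-fold. Tsc22d3, which encodes the anti-inflammatory protein GILZ, had 52.0, 30.8 and 28.3 CPM in RI against 17.4, 22.2 and 14.7 CPM in ICI (adjusted p = 0.0490). Fkbp5, a co-chaperone of the glucocorticoid receptor, had 108, 75.5 and 73.2 CPM in RI against 79.8, 72.1 and 77.1 CPM in ICI and did not pass (adjusted p = 0.525). The same library, RI replicate 1, was highest for Fos, Tsc22d3, Fkbp5 and Dusp1. Whether these genes and Dusp1 share a cause was not tested.

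RNA of other cell types also varied by library, and its part in the results above was not tested. The 6 fibroblast markers summed to 351 to 733 CPM in RI and 106 to 708 in ICI, and the 6 macrophage markers to 142 to 286 and 137 to 181. The 6 skeletal muscle markers summed to 16.8 to 2154 CPM in RI and 2.49 to 208 in ICI, highest in RI replicate 1. The 5 adipocyte markers summed to 53.3 to 77.1 CPM in RI and 0.654 to 24.5 in ICI, sums without overlap. Taken singly, 3 of the 5 did not overlap between the groups. Adipoq and Plin1 did overlap and were highest in ICI replicate 3, at 2.20 and 1.32 CPM. The 5 T cell markers summed to 0.467 to 11.0 CPM in RI and 2.51 to 30.6 in ICI, 4 neutrophil markers to 1.82 to 10.5 and 1.48 to 2.76, and 4 keratinocyte markers to 0.608 to 1.45 and 0.0627 to 0.453. No marker was at 0 in all 6 libraries.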

How the data were processed

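Bulk RNA sequencing gave 6 tumour libraries. The deposited values are whole-number counts, 1 row per Ensembl gene and 1 column per library. Per the submitters' processing notes, reads were aligned with HISAT2 to GRCm38 (mm10). No source used here gives the counting tool, annotation, strand setting or versions. The members and gene lists were chosen with earlier results of these data known.

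Genes were filtered with filterByExpr (16924 kept, 83 of all rows without a symbol), scaled by TMM and tested with the robust quasi-likelihood test of edgeR 4.0.16 in R 4.3.3, with calls at a Benjamini-Hochberg adjusted p under 0.05. The procedure was tested on simulated counts of 16672 genes, with 100 changed 2-fold and 97 changed 4-fold. It called 33% of the 2-fold and 72.2% of the 4-fold changes put in, so true changes of that size or smaller can go uncalled. Of its calls 5.5% were false. The simulation held no library that stood apart and no effect of transcript length or GC content. Its shares therefore need not hold for these data. SEs came from the coefficient and F statistic. Log2 CPM for correlations used a prior count of 2. TPM used merged exon lengths of GENCODE M21, on the same build. Near-identity was searched with blastn 2.17.0 (at least 200 bases at 95%). Promoters came from RefSeq. No pair of libraries agreed within sampling noise (chi-square per degree of freedom at least 36.3).

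Named genes were the 10 members, up to 4 called genes of each pathway list by size of change, a fixed set of pathway genes, and the 3 genes most like Dusp6 and Spry4. Alternatives were other scalings, filters and thresholds, DESeq2 1.42.0, limma-voom (limma 3.58.1), non-robust estimation, a replicate block, leaving out mitochondrial genes or each library, and offsets for transcript length and GC content. Some genes that the rule for named genes selects are not reported here.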

Additional observations from a re-analysis of the deposited data

How the results depend on the processing

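Of the 10 genes, 1 was called higher and 0 lower. The number higher was 2 with upper-quartile scaling or DESeq2, 3 at an adjusted p under 0.1, and 0 with no filter on low counts, limma-voom or the length and GC offsets. The number lower was 1 with DESeq2 and at an adjusted p under 0.1. Leaving out 1 library gave 0 to 1 higher and 0 lower. Etv4 (0.15) turned to -0.0827 with limma-voom, -0.18 with the length and GC offsets, -0.62 without RI replicate 1 (-0.62 to 0.44 over the libraries left out) and -0.89 with both. Dusp5 (0.32) turned to -0.14 with both, Spry4 (-0.27) to 0.18 with the replicate block, and Fkbp5 (0.17) to -0.0375 without RI replicate 1 (-0.0375 to 0.27 over the libraries left out). The cause was not tested. Over the 10 genes and their alternatives, 153 values kept direction and side of the threshold, 8 lost the call (all Dusp1), 3 gained one and 6 changed sign.

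Over all tested genes 1553 were called, 48.6% of them higher. Upper-quartile scaling gave 67.8% higher (1046 higher and 497 lower) and moved the median log2 fold change of all genes from 0.01 to 0.10; with no filter it was 0.23. The number called was 2628 with no filter, 3449 with DESeq2, 645 with the replicate block, 610 with the length and GC offsets, 2482 with those offsets without RI replicate 1, 3635 at an adjusted p under 0.1 and 587 when an absolute log2 fold change of 1 was also required. Leaving out 1 library gave 0 to 3109. The 0 arose without ICI replicate 1 or RI replicate 2, where edgeR's unadjusted p was under 0.05 for 3701 and 4107 genes.

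Core cascade genes lower numbered 6, and 3 with upper-quartile scaling, 1 with the replicate block, 1 with the length and GC offsets, 10 at an adjusted p under 0.1 and 1 when an absolute log2 fold change of 1 was also required. Leaving out 1 library gave 0 to 9.

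Replicates 1 and 2 exist in both groups. Deviations from the group means correlated at 0.35 and 0.09 for these pairs, and at -0.32 to 0.27 for RI and ICI libraries with different numbers. The labels tie no numbers together, so whether libraries of the same number share anything more is not known. With the replicate block Dusp1 stayed called (log2 fold change 1.76, adjusted p = 0.0106), 4 of 12 immediate early genes were called higher, and Spred3, Phlda1, Ccnd1, Met and Mapk14 had adjusted p = 0.0601 to 0.143.

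At 22543721 to 45624013 counts per library, a floor of 3 counts is 0.0627 to 0.140 CPM, far below all 10 genes. Comparisons rest on 3 libraries a group.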
